A study of Drosophila melanogaster with 58 samples.

Results

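Of the 6009 genes in the fly wing count tables that carry only an annotation number as their name (CG plus digits, the FlyBase convention for a predicted gene with no given name), 67 had an RNA peak 6 h after puparium formation (APF) in wild-type wings. They were chosen from the 17559 genes counted by their levels in the 12 wild-type libraries. Levels in CPM (the usual depth-scaled count, a gene's reads relative to all reads counted on genes in its library) were averaged over the 2 libraries of a stage, and a gene was kept when its 6 h mean was 20 CPM or more and at least 4 times its mean at each of the other 5 stages. The wild-type levels are therefore a description, and tests are given only for the control, E2F and E2F + CycD wings, which had no part in the choice.

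RNA-seq was carried out on female *Drosophila* wings, with 2 libraries per group. Wild-type wings were taken at the end of larval life (L3) and at 6, 18, 24, 36 and 44 h APF. Control, E2F and E2F + CycD wings were taken at 24 and 44 h. The transgenic animals shared a heat-shock flippase (hs-FLP), the flip-out driver tub>CD2>GAL4 with UAS-GFP, and the temperature-sensitive Gal4 inhibitor tub-gal80TS. Control animals had no further transgene. E2F animals also carried UAS-E2F1 and UAS-DP, which encode both subunits of the activator E2F, and E2F + CycD animals carried those together with UAS-CycD and UAS-Cdk4, which encode a cyclin and its kinase. The label of the 24 h E2F samples gives only the group name in place of the genotype. Expression was switched on by a temperature shift after the 6 h stage and before the 18 h stage, so the 6 h peak itself was not manipulated. Before the shift, per the study's methods, the transgenic animals were heat-shocked as larvae and kept at a lower temperature. Control wings had this treatment too. Flip-out acts in the cells that lose the CD2 cassette and their descendants, and the share of such cells in these wings was not measured here. Since whole wings were used, fewer cells of a type and less RNA per cell cannot be told apart.

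The 6 h stage falls in the prepupa. A pulse of the steroid hormone ecdysone at the end of larval life starts metamorphosis, the wing disc everts, and its epithelium secretes a pupal cuticle, a layer of chitin and proteins on the apical surface. A later ecdysone pulse is followed by final divisions, cell cycle exit and, in the second part of pupal life, secretion of the adult cuticle by the same epithelium. Proteins made for either layer are mostly exported, and many of their genes are active in a brief window.

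RNA of the overexpressed genes was measured first. E2f1 was at 104 to 473 CPM in the control libraries, 3747 to 4418 in E2F wings and 908 to 1976 in E2F + CycD wings, after scaling by the trimmed mean of M values (TMM, which sets libraries to a common level for most genes). CycD was at 27.1 to 60.8 in control and E2F libraries and at 596 to 1826 in E2F + CycD wings, and Cdk4 at 21.9 to 42.2 and at 130.4 to 474. Dp was at 727 to 1250 in E2F wings. In E2F + CycD wings, whose label names UAS-DP too, it was only a little above control, at 129 to 154 against 79.3 to 79.7 at 24 h and 86.1 to 90.7 against 57.8 to 65.4 at 44 h. Totals ran from 1900774 to 7512920 counts in the wild type and from 11201219 to 16332737 in the transgenic libraries. The replicates of 3 groups stood further apart than the others, by chi-square over degrees of freedom: 112 for wild type at 6 h, 89.6 for control at 44 h and 68.4 for E2F at 44 h, against 7.25 to 24.4 in the other 9 groups. The 67 genes took 9.93% and 3.80% of all counts in the wild-type 6 h libraries, 0.773% and 0.510% in the control 44 h libraries and 0.255% and 0.315% in the E2F 44 h libraries. TMM scaling factors of the control 44 h libraries were 0.585 and 0.565, against 0.838 to 1.26 in the other transgenic libraries, and TMM-scaled CPM is used for all transgenic levels below. In the wild type, summed CPM of 7 wing epithelium genes were 906 and 930 in the 6 h libraries. Those of 7 fat body genes were 135 in 6 h replicate 1 and 644 in replicate 2, and those of 5 neuron and glia genes were 92.2 and 228. None of the 8 salivary gland or 7 midgut genes reached 3 counts in either 6 h library. The part of other tissues in the members' 6 h levels was not tested.

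What the members encode was read from annotation and sequence alone, which the choice did not use. All 67 had a RefSeq protein, of 63 to 5182 residues (median 363). A hydrophobic start was found in 46 of 67 (68.7%), against 29.3% of all 13595 fly proteins. It was defined as a run of 9 or more residues within the first 30 that were A, V, L, I, F, M, W, C or G. A single other residue was allowed in the run, and alanine and glycine count as hydrophobic here. Such a run is typical of signal peptides and of some membrane anchors. The share was 63.6% among 77 proteins of named genes that passed the same 6 h rule, 60% in the 30 CG genes chosen the same way at 36 h and 54% in the 50 chosen at 44 h, so the hydrophobic start was common to all of these sets.

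The closest named fly protein (blastp, E of 1e-10 or less) was known for 30 members, and groups them by likely chemistry rather than by proven role. A group of 5 resembled trypsin-type serine proteases. CG8170 (RefSeq synonym SP54) and CG4998 (SPH66) were closest to Stubble (Sb), a membrane protease needed for eversion of legs and wings, at 39.5% and 39.8% identity over 28.9% and 21.9% of their length. CG3355 (SP21) was closest to tpr, CG14892 (SP175) to spirit, a protease of the immune Toll pathway, and CG9737 (SP5) to Sp7, a protease of the melanization cascade. CG34355 was most like knk (36.0% identity over 87.4% of its length), which organizes and protects chitin in the cuticle. CG11147 was closest to snu (39.0%), an ABC transporter required for the cuticle's lipid barrier, CG12268 to wat (31.3%), a fatty acyl-CoA reductase of the airway, and CG31522 to Elovl7 (52.7%), a fatty acid elongase. CG10211 (synonym DBLOX) resembled the heme peroxidase cysu over 40.5% of its length, and CG10657 the lipid-binding protein Cralbp (36.4%). CG15756 matched the chitin-binding cuticle protein Cpr12A over 35.6% of its length. The other 37 members had no named relative at this threshold, among them CG12164, CG2150, CG4115, CG15212 and CG17127, which had the highest 6 h levels.

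Some members resembled each other. CG12164 and CG15615 were 47.0% identical over 230 residues, CG1368 and CG31626 were 41.9% identical over 215, and the lipase-like CG6753 and CG31871 were 37.9% identical over 385. CG13041 and CG13060 were 88.7% identical over 133 residues and lie next to each other, so reads that fit both may have been split or dropped in counting. Proteins of 30% glycine or more were found in 3 members (CG9083, CG14327 and CG2150), and 13 had 150 residues or fewer. The study's list of 154 cuticle genes held 6 members: CG12164, CG14752, CG15615, CG1136, CG8927 and CG34417.

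**Figure D1:**
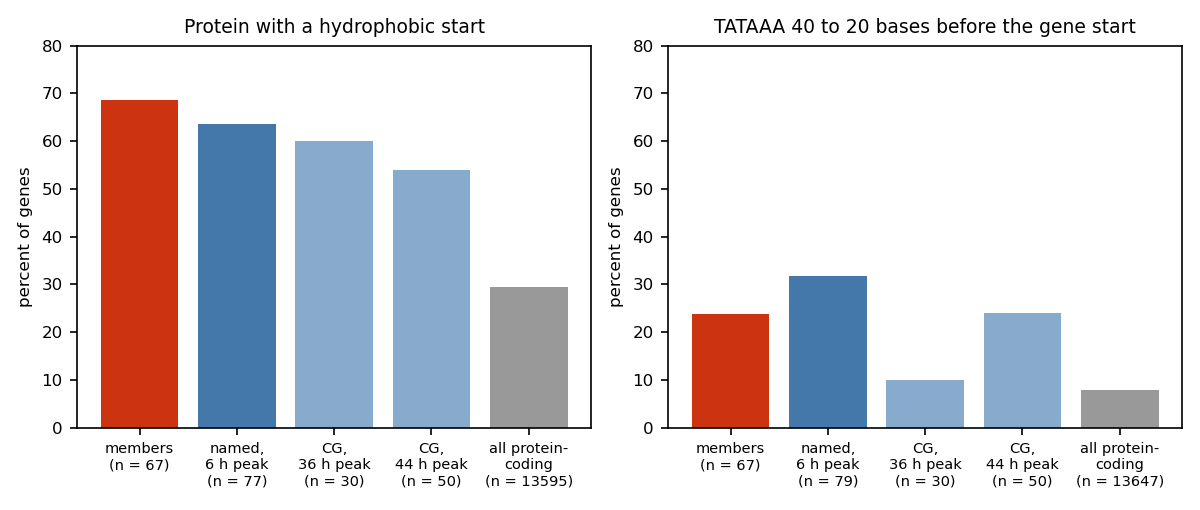
Share of proteins with a hydrophobic start (left) and of genes with TATAAA 40 to 20 bases before the annotated start (right), in percent, for the 67 members, the named genes with a 6 h peak, the CG genes with a 36 h or 44 h peak and all protein-coding genes; n stands under each bar. Members reached 68.7% and 23.9%, against 29.3% and 7.86% of all genes, and named 6 h genes reached 63.6% and 31.6%.

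A TATA box near the start of transcription, a core promoter element that binds the TATA-binding protein, was more frequent among the members than among all fly genes. TATAAA on the gene's strand, starting 40 to 20 bases before the annotated start, was found for 16 of 67 members (23.9%) and 7.86% of 13647 protein-coding genes. It was found for 31.6% of the named 6 h genes, 24% of the CG genes with a 44 h peak and 10% of those with a 36 h peak. Anywhere from 250 bases before to 50 bases after the start, on either strand, TATAAA was in 46.3% of members and 45.9% of all genes, so over that whole window the shares were close. AGGTCA, the half-site of many nuclear receptors, was in 2 members (2.99%, against 5.94% of all genes). The longer AAGGTCA, which contains it, was in 1 (1.49%, against 2.13%). GAGAG, a core of GAGA factor sites, was in 38.8% of members and 29.7% of all genes.

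The start regions of some members described below, from 80 bases before to 20 bases after the gene start, show how the box is placed where it is present. They were read from the RefSeq Release 6 genome (dm6), 5′ to 3′ on the gene's strand, and capitals mark TATAAA. The first 6 genes have the box and CG10657, which fell strongly in E2F + CycD wings at 44 h, has none. The regions shown are thus not typical of the members, of which 16 of 67 have the box. CG11380, CG1136, CG10211, CG31522, CG34355 and CG4115, also described below, have none in this position.
CG2150, chr3R:31764753-31764852, minus strand: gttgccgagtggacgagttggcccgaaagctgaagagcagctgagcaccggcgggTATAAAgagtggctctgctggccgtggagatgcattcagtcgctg
CG15212, chr3L:5131465-5131564, plus strand: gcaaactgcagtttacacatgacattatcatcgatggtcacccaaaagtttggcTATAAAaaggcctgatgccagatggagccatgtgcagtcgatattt
CG17127, chr2L:10770788-10770887, plus strand: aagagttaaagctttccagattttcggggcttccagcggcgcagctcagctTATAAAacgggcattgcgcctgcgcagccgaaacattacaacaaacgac
CG16704, chr2L:3692568-3692667, minus strand: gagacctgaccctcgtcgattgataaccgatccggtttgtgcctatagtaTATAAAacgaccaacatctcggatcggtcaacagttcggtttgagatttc
CG14107, chr3L:13381327-13381426, minus strand: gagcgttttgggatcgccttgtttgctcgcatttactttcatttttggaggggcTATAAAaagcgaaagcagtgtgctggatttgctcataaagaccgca
CG4998, chr3L:16338923-16339022, plus strand: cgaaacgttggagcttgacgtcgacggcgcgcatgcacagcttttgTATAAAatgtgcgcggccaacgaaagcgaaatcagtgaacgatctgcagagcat
CG10657, chr3L:12497197-12497296, minus strand: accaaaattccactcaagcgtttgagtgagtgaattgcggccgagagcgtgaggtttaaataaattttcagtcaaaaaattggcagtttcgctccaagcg

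In these windows the box starts 25 bases before the start in CG2150, 26 in CG15212 and CG14107, 29 in CG17127, 30 in CG16704 and 34 in CG4998. Members were spread over the genome, with 16 on 2L, 10 on 2R, 13 on 3L, 16 on 3R and 12 on X. Only CG13041, CG13060 and CG4998 formed a run of 3 members within 50000 bases of each other, at chr3L:16318954-16345241, and 8 more pairs lay that close.

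In wild-type wings the 67 genes covered a wide range at 6 h, with a median of 281 CPM. The 12 highest took 77.0% of the members' 6 h level. CG12164, with no named relative, was at 21794 and 5742 CPM in the 6 h libraries and at 2.74 to 14.0 in those of L3, 18, 24 and 36 h, before a second, lower level of 340.0 and 160.0 at 44 h. The glycine-rich CG2150 was at 17246 and 4752 at 6 h and 126 and 54.99 at 44 h. CG4115 was at 4593 and 6088 at 6 h and 123 and 127 at 44 h. All 3 were high in both 6 h libraries and came back far below that level, at 44 h or, for CG2150, from 36 h on.

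CG15212, of only 63 residues, was at 8277 and 685 CPM at 6 h and was still at 108 and 199 at 18 h. CG17127, of 98 residues, was at 5585 and 1836 at 6 h, and 44 h brought 249.8 and 339. The glycine-rich CG9083 was at 5212 and 1043 at 6 h and no more than 12.9 in any other library, which gave the largest ratio of the set (372-fold over the next highest stage). CG9083 shares 96.8% of its exon bases with Tpc2 on the other strand, and the strand setting of the counting is not given, so its reads may include those of Tpc2. These 3 genes, whose proteins all have a hydrophobic start, thus ranged from a single sharp peak to a peak with a shoulder at 18 h or a return at 44 h.

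CG34417, a protein of 5182 residues, was the exception among the 12. It was at 3940.4 and 1229 CPM at 6 h, but at 107 to 492 in every other library. CG9411 was at 2362 and 2663 at 6 h and 15.7 and 20.03 at 44 h. CG1368 was at 2999 and 439 at 6 h and, at 44 h, 21.96 and 8.47. The peroxidase-like CG10211 returned strongly, with 1642 and 1585 at 6 h and 287 and 259 at 44 h. CG14107 was lower in 6 h replicate 1, with 589 and 2532, and reached 355 and 342 at 44 h. CG16704, whose closest relative is the immune-induced peptide IM33, was at 2688 and 189 at 6 h and at most 12.3 elsewhere. Per exon length the order changes: CG15212 led with a 6 h level of 10069.5 CPM per kilobase of exon, CG2150 had 9401 and CG12164 8860, and CG34417 only 128.

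**Figure D2:**
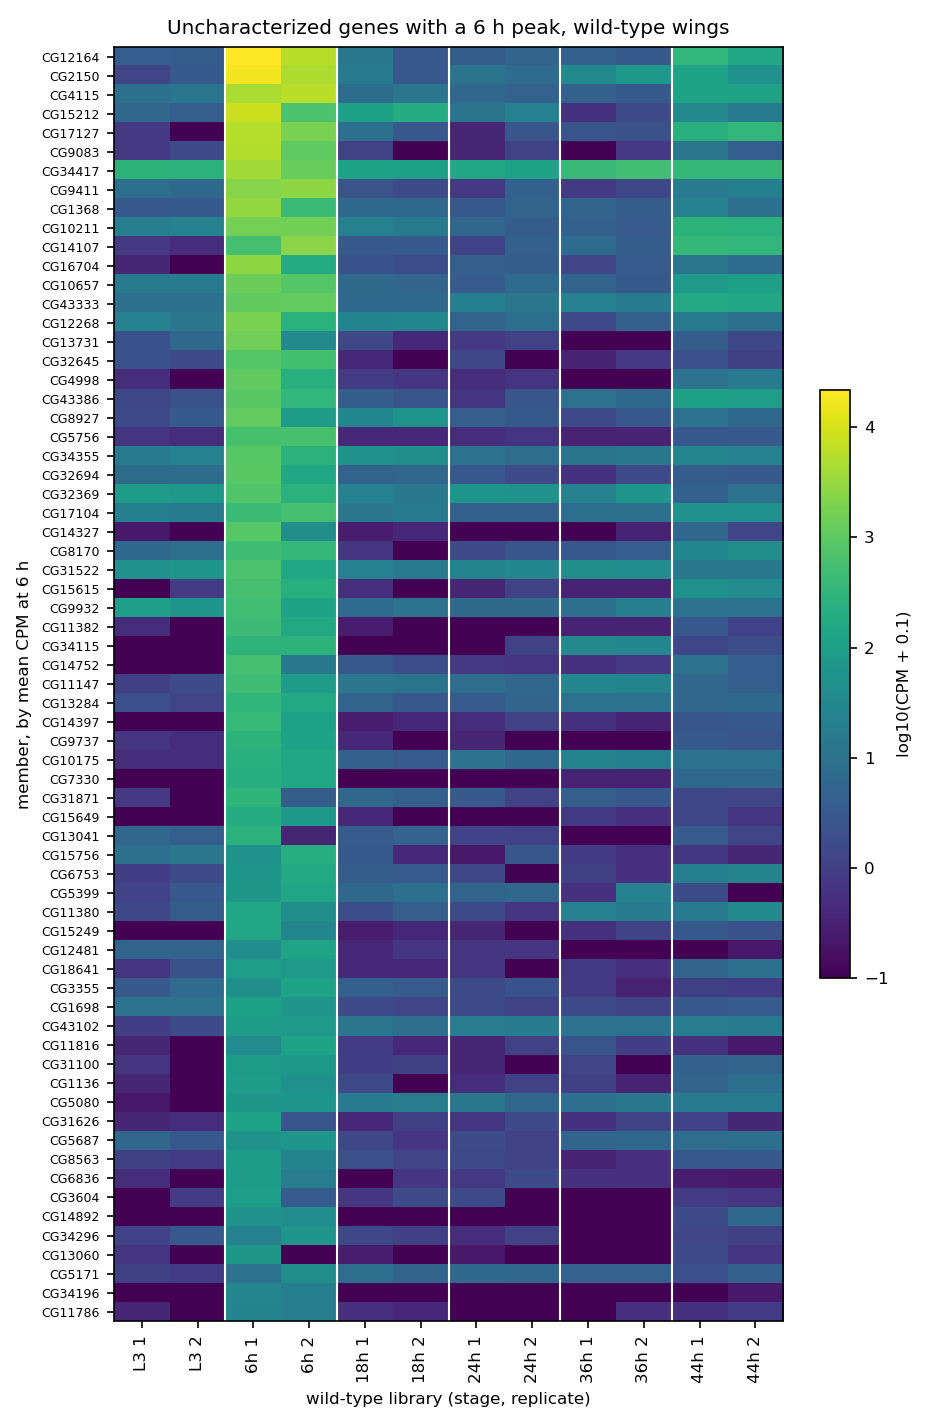
CPM of the 67 members (rows, ordered by their 6 h mean) in the 12 wild-type libraries (columns, stage and replicate), as log10(CPM + 0.1). The 6 h columns are brightest by the choice of genes; outside 6 h, the 44 h columns hold the most members at 20 CPM or more (17, against 3 to 7 at the other stages).

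Outside 6 h, the members' RNA took its largest share of counts at 44 h, with 0.268% and 0.247% in the 2 libraries against 0.0399% to 0.0946% in the libraries of the other 4 stages. The 44 h stage was the next highest stage for 38 members, L3 for 12, 18 h for 8, 36 h for 7 and 24 h for 2. At 44 h, 17 members had a mean of 20 CPM or more, while 5 did at L3, 5 at 18 h, 3 at 24 h and 7 at 36 h. The median member was at 2.34% of its 6 h level at 44 h and at 0.388% to 0.822% at the other stages. CG34115 departed from this course, at 32.9 and 27.9 CPM at 36 h against 1.25 and 1.75 at 44 h. In 64 members, both 6 h libraries were above every other wild-type library. The exceptions were CG13041, CG13060 and CG31871, each near absent from one 6 h library.

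The 6 h libraries differed in level for most members. Replicate 1 was higher for 52 and replicate 2 for 15, with a median ratio of 2.60, and 23 members were more than 4-fold apart, 21 of them higher in replicate 1. CG13060 had 66.9 and 0 CPM and CG13041 270.4 and 0.264, so both were near absent from replicate 2. The lipase-like CG31871 had 304 and 3.6999 CPM, CG31626 had 124 and 2.38, CG13731 had 1492 and 34.9 and CG14752 had 554 and 14.01. Within the 12 highest, CG16704, CG15212 and CG1368 differed 14.2-, 12.1- and 6.84-fold, and CG9083 is given above. The reverse was found for CG14107 (given above) and CG5171, with 9.56 and 45.98. For the remaining 11 such genes (CG3604, CG14327, CG8927, CG12268, CG32694, CG11147, CG15249, CG6836, CG4998, CG9932 and CG31522) replicate 1 was higher, from 4.06-fold in CG31522 to 27.9-fold in CG3604. These libraries also differ in the fat body and neuronal sums given above, whose part in this was not tested. Taken from replicate 1 of every stage alone the rule gives 79 genes, 64 of them members, and from replicate 2 alone 60 genes, 49 of them members.

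**Figure D3:**
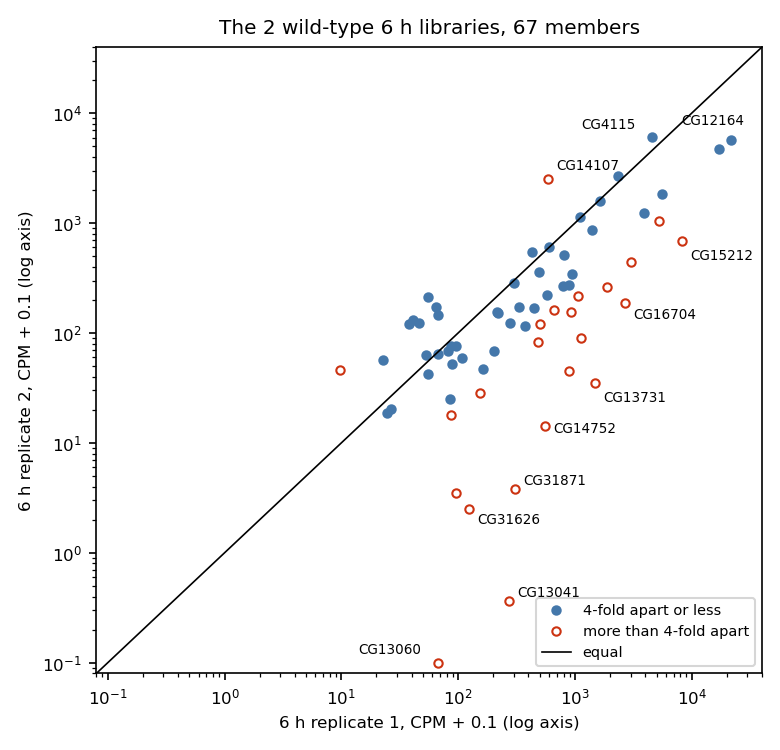
CPM + 0.1 of each of the 67 members in wild-type 6 h replicate 1 (x axis) and replicate 2 (y axis), both on log axes; the line marks equal values and open red points the 23 members more than 4-fold apart. Most points lie below the line (52 members), and CG13041 and CG13060 lie lowest, at 0.264 and 0 CPM in replicate 2.

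Near the limits of the rule, the members with the lowest 6 h means were CG11786 (21.7 CPM), CG34196 (23.2) and CG5171 (27.8), and just outside lay CG34291 (19.8), CG13707 (19.1) and CG30427 (18.8). The lowest ratios inside were those of CG5080 (4.05), CG9932 (4.09) and CG11380 (4.13), and the highest outside were those of CG15545 (3.90), CG7530 (3.87) and CG9338 (3.83).

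Known cuticle families gave part of the setting. Among 100 Cpr and other cuticle protein genes, 35 had their highest wild-type mean at 6 h and 15 passed the same rule. The numbers were 10 and 4 of 26 Tweedle genes, 8 and 6 of 22 Osiris genes, 7 and 4 of 19 chitin and apical matrix genes, and 2 and 1 of 21 ecdysone regulators and effectors. Of the study's cuticle list, 47 of 154 were highest at 6 h and 25 passed, but the study examined that list on these libraries, and how its genes were picked is not given in the sources used here, so its count is not independent evidence.

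A higher level of members at 44 h than at 24 h was also seen in the control wings, which the choice did not use. Of the 67, 56 passed the filter on low counts in the transgenic libraries and were tested. A gene was called with edgeR where the p adjusted over 9636 genes (Benjamini-Hochberg) was under 0.05 and the log2 fold change exceeded 1 in size. From 24 h to 44 h in control wings, 42 of the 56 were called higher and 3 lower, while 20.6% of all tested genes were called higher and 16.3% lower. The median log2 fold change was 3.53 over the tested members (3.34 with the 5 that had 3 counts or fewer in a group set to that floor) and -0.03 over all genes. For 7 of the 56 (CG18641, CG14397, CG9083, CG8563, CG6836, CG14892 and CG32645) only the 44 h control libraries met the filter, so they had to be high there. With the filter set by the other 10 libraries, 50 members were tested, and 36 were called higher and 3 lower, where 19.9% and 16.2% of all tested genes were. With any 1 library left out, 36 of the 45 calls held.

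Log2 fold changes are given below with ± their standard error, from fits with 2 libraries per group; nothing in the labels says that the libraries came from separate pools of animals, so p-values measure the spread between these samples. CG17127 rose most among members with enough counts, from 7.62 and 3.58 TMM CPM in the 24 h control libraries to 1581 and 847 at 44 h, a log2 fold change of 7.79 ± 0.66 (edgeR adjusted p = 1.37e-06). CG1136 rose from 2.302 and 0.867 to 408 and 75.4, by 7.32 ± 0.88 (edgeR adjusted p = 2.58e-05), and its 44 h libraries lie far apart. CG4115 rose from 0.635 and 0.231 to 69.5 and 47.5, by 7.15 ± 0.39 (edgeR adjusted p = 6.16e-08). Of the 4 protease-like genes tested, 3 rose, beside 42 of all 56 tested members. Among the 3 was CG14892, which passed the filter only through the 44 h control libraries. CG8170 rose from 44.3 and 22.3 to 2708 and 1243, by 5.896 ± 0.605 (edgeR adjusted p = 6.77e-06), and CG4998 from 5.16 and 3.12 to 675 and 396, by 7.04 ± 0.48 (edgeR adjusted p = 3.01e-07). CG3355, the protease-like gene closest to tpr, was at 0.953 and 0.52 at 24 h and 0.855 and 1.17 at 44 h and was not called. CG4998 shares 40.1% of its exon bases with a non-coding RNA on the same strand.

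In these control wings 26 members were at 20 TMM CPM or more at 44 h and 5 at 24 h. Levels did not follow the 6 h order. CG8170, at 489 and 357 CPM in the wild type at 6 h, had a 44 h control level close to the highest of all members, next to the giant CG34417 with 2747 and 3339. CG12164, first at 6 h, was at 78.3 and 51.5. The members that fell were CG15212, from 9.45 and 7.17 to 1.34 and 1.04 (log2 fold change -2.79 ± 0.55, edgeR adjusted p = 0.00108), CG31522, from 31.99 and 35.5 to 12.1 and 13.5 (-1.401 ± 0.22, edgeR adjusted p = 1.75e-04), and CG5399, from 1.35 and 1.098 to 0 and 0.13 (-4.096 ± 1.05, edgeR adjusted p = 0.00608), where the 44 h level rests on 1 count over both libraries (36 against 1, a ratio of 19.1 with a 95% exact counting interval of 3.22 to 776). The call of CG5399 was lost without control 44 h replicate 1 (adjusted p = 0.0536).

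The question at 44 h was whether the members keep their control level when cell cycle exit is delayed (E2F) or bypassed (E2F + CycD). Both comparisons use the same control libraries, so their values stand side by side and are not independent. Control levels also departed from wild-type 44 h levels, in both directions and on unlike scales. CG8170 was at 28.3 and 45.2 CPM in the wild type, 2708 and 1243 TMM CPM in control and 36.9 and 124 in E2F wings. CG12164 was at 340.0 and 160.0, 78.3 and 51.5 and 13.9 and 36.4. Control against wild type was not tested, so lower here means lower than control. Against control, 29 of the 56 tested members were called lower and 3 higher in E2F wings, where 10.5% of all tested genes were called lower and 12.6% higher. In E2F + CycD wings 40 were called lower and 3 higher, where 16.1% of all tested genes were called lower and 15.1% higher. Median log2 fold changes over the tested members were -1.36 and -2.41, against -0.07 and -0.06 over all genes. These medians did not move with members of 3 counts or fewer set at that floor. The 7 members that passed the filter only through the 44 h control libraries are among those called lower in both comparisons, a direction that this filter favours. With the filter set by the other 10 libraries, 22 of 50 tested members were called lower and 3 higher in E2F wings (9.97% and 12.6% of all tested genes), and 33 lower and 3 higher in E2F + CycD wings (15.6% and 15.1%), with medians of -1.01 and -2.08. Of the 3 groups whose replicates stood apart, 2 enter here. Without control replicate 1 or replicate 2, 25 and 24 members were called lower for E2F, 41 and 36 for E2F + CycD, and without E2F replicate 1 or replicate 2, 19 and 29 were called lower in E2F wings. In all, 19 of the 32 E2F calls and 35 of the 43 E2F + CycD calls held with any 1 library left out. With library totals in place of TMM, the median of all genes moved to 0.54 and 0.92, and 25 and 30 members were called lower, with 6 and 5 higher. The shares of all genes called with library totals are not given here, so these member counts have no background beside them.

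**Figure D4:**
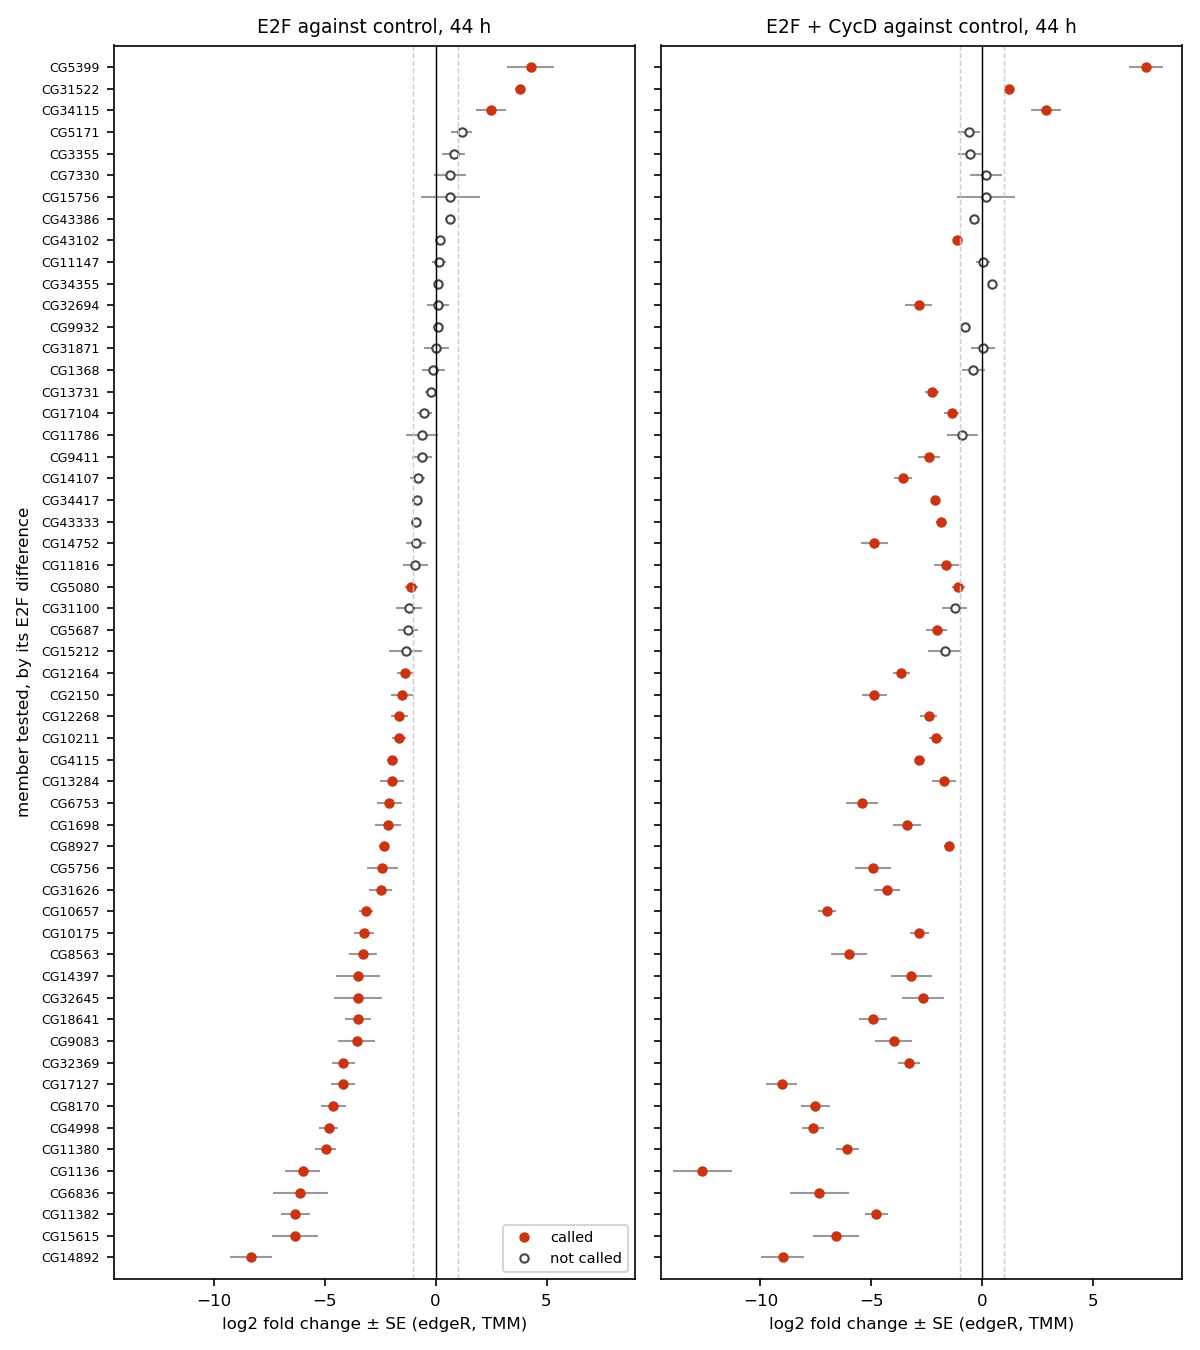
Log2 fold change ± SE (edgeR, TMM) at 44 h of the 56 members tested, for E2F against control (left) and E2F + CycD against control (right), ordered by the E2F value; filled points were called and dashed lines mark -1 and 1. Most called points lie to the left (29 and 40 members), and only CG5399, CG31522 and CG34115 were called to the right in either panel.

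Of all 56 tested members, 29 were called lower in E2F and 40 in E2F + CycD wings. Of the 4 protease-like genes tested, 3 were called lower in both groups and 1 in neither. Of the 3, CG14892 passed the filter only through the 44 h control libraries, which favours this direction. CG8170 was at 2708 and 1243 TMM CPM in control, 36.9 and 124 in E2F and 10.1 and 11.3 in E2F + CycD, all at 44 h, with log2 fold changes against control of -4.62 ± 0.57 (edgeR adjusted p = 6.66e-05) and -7.53 ± 0.66 (edgeR adjusted p = 2.97e-06). CG4998 was at 675 and 396, 10.4 and 27.9 and 2.91 and 2.501, with -4.82 ± 0.43 (edgeR adjusted p = 6.46e-06) and -7.62 ± 0.501 (edgeR adjusted p = 4.68e-07). In both genes the groups were apart in every library, in the order control, E2F, E2F + CycD. CG14892 was at 138 and 25.7 in control, 0.15 and 0.365 in E2F and 0 and 0.321 in E2F + CycD wings, with -8.32 ± 0.95 (edgeR adjusted p = 4.00e-05) and -9.0001 ± 0.97 (edgeR adjusted p = 1.49e-05). Its control libraries differ more than 5-fold, and its level in E2F and E2F + CycD wings was near the limit of detection. CG3355 was at 1.65 and 1.92 in E2F and 0.80 and 0.577 in E2F + CycD wings and was called in neither, and CG9737 was not tested.

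Of the members with no named relative, CG17127 was at 1581 and 847 TMM CPM in control, 31.2 and 104 in E2F and 3.08 and 1.47 in E2F + CycD wings, with log2 fold changes of -4.17 ± 0.54 (edgeR adjusted p = 1.02e-04) and -9.04 ± 0.703 (edgeR adjusted p = 1.40e-06). CG11380 was at 882 and 404, 12.7 and 29.04 and 7.88 and 11.1, with -4.96 ± 0.49 (edgeR adjusted p = 1.42e-05) and -6.09 ± 0.52 (edgeR adjusted p = 2.51e-06). Both were separated from control in every library. CG11382, which lies next to CG11380 on X, was at 27.2 and 20.9, 0 and 0.639 and 0.914 and 0.834, with -6.32 ± 0.64 (edgeR adjusted p = 1.62e-05) and -4.77 ± 0.53 (edgeR adjusted p = 1.94e-05). Its E2F libraries lay below both E2F + CycD libraries, a difference that was not called (1.55 ± 0.78, edgeR adjusted p = 0.17).

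Of the 6 members on the study's cuticle list, 4 were called lower under E2F and all 6 under E2F + CycD. Over all 56 tested members the numbers were 29 and 40. The count of the cuticle list is not independent evidence, since the study examined the list on these libraries. The E2F exceptions were CG14752 (-0.898 ± 0.45, edgeR adjusted p = 0.132) and CG34417, given with its values below. CG1136 was at 408 and 75.4 TMM CPM in control and 1.502 and 6.301 in E2F wings, a log2 fold change of -5.998 ± 0.81 (edgeR adjusted p = 1.33e-04). In E2F + CycD wings CG1136 had 1 count over both libraries against 3920 in control, a ratio of 8167 with a 95% exact counting interval of 1465 to 322675, which covers counting error only. Its fitted log2 fold change is not given because it depends on that 1 count. CG15615 was at 975 and 74.1 in control, 5.33 and 7.85 in E2F and 6.17 and 4.55 in E2F + CycD wings, with -6.32 ± 1.04 (edgeR adjusted p = 5.39e-04) and -6.61 ± 1.05 (edgeR adjusted p = 2.80e-04), and its control libraries stand far apart. CG12164 was at 78.3 and 51.5, 13.9 and 36.4 and 5.83 and 4.49, with -1.38 ± 0.35 (edgeR adjusted p = 0.00886) and -3.65 ± 0.39 (edgeR adjusted p = 1.53e-05). The E2F call of CG12164 was lost without control replicate 1 (adjusted p = 0.0799) and without E2F replicate 1, where the log2 fold change was -0.83. CG8927 was at 65.4 and 41.4, 9.31 and 12.1 and 17.1 and 20.7, with -2.33 ± 0.24 (edgeR adjusted p = 1.80e-05) and -1.4999 ± 0.22 (edgeR adjusted p = 1.88e-04), and here the E2F libraries were the lowest.

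The lipid-binding-like CG10657 was at 426 and 295 TMM CPM in control, 25.4 and 56.8 in E2F and 3.03 and 2.63 in E2F + CycD wings, with log2 fold changes of -3.14 ± 0.33 (edgeR adjusted p = 2.25e-05) and -6.99 ± 0.41 (edgeR adjusted p = 2.52e-07). A non-coding RNA on the other strand covers 85.8% of its exon bases. The peroxidase-like CG10211 kept more of its RNA, at 542 and 584, 119.7 and 239 and 149.7 and 117, with -1.65 ± 0.301 (edgeR adjusted p = 0.00108) and -2.08 ± 0.305 (edgeR adjusted p = 1.61e-04). CG4115 was at 69.5 and 47.5, 12.1 and 18.4 and 9.14 and 7.25, with -1.94 ± 0.26 (edgeR adjusted p = 1.15e-04) and -2.83 ± 0.27 (edgeR adjusted p = 5.25e-06). CG34417, the most abundant member at 44 h, was at 2747 and 3339, 1579.9 and 1805 and 648 and 749. It was called lower in E2F + CycD wings (-2.12 ± 0.17, edgeR adjusted p = 1.53e-06) and stayed within a log2 fold change of 1 in E2F wings (-0.85 ± 0.16, edgeR adjusted p = 0.00148). CG9411 and CG14107 were likewise called lower in E2F + CycD wings (-2.404 ± 0.48, edgeR adjusted p = 0.0015, and -3.58 ± 0.405, edgeR adjusted p = 2.21e-05) and not called in E2F wings (-0.62 ± 0.46, edgeR adjusted p = 0.308, and -0.81 ± 0.35, edgeR adjusted p = 0.0889).

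Other members with a high 44 h level varied in the order of groups. Of those given next, only CG43333 kept the order control, E2F, E2F + CycD in every library. The glycine-rich CG2150 was at 424 and 119 TMM CPM in control, 68.9 and 120.2 in E2F and 11.5 and 7.12 in E2F + CycD wings, with log2 fold changes of -1.52 ± 0.495 (edgeR adjusted p = 0.0292) and -4.86 ± 0.58 (edgeR adjusted p = 3.39e-05). One E2F library lay above a control library, and the E2F call of CG2150 was lost without control replicate 1 (adjusted p = 0.586) and without E2F replicate 1 (0.189). CG43333, whose closest named relative is mfas over 27.5% of its length, was at 719 and 856, 343 and 516 and 198 and 241, and was called in E2F + CycD wings (-1.84 ± 0.24, edgeR adjusted p = 7.24e-05) but not in E2F wings (-0.87 ± 0.24, edgeR adjusted p = 0.0121). CG32369 was at 195 and 44.01, 6.61 and 6.85 and 11.6 and 12.8, with -4.15 ± 0.53 (edgeR adjusted p = 8.71e-05) and -3.29 ± 0.49 (edgeR adjusted p = 1.85e-04), and its E2F libraries were the lowest. CG17104 was at 144 and 68.02, 58.7 and 91.04 and 42.6 and 38.6, and its E2F + CycD call (-1.39 ± 0.34, edgeR adjusted p = 0.0055) was lost without control replicate 1 (log2 fold change -0.72). CG43386 was at 34.9 and 47.6, 62.04 and 66.8 and 33.3 and 29.9 and was not called against control in either group.

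The closest named relative of 8 members acts in lipid metabolism, transport or binding, a grouping made after their values were seen. Of these, 5 were called lower, 1 higher and 2 in neither direction, with the same numbers for both transgenic groups. Of all 56 tested members, 29 were called lower in E2F and 40 in E2F + CycD wings, and of all tested genes 10.5% and 16.1%. Whether the group differs from the other members was not tested. CG10657 is given above. CG18641, closest to the lipase sxe2, was at 12.2 and 6.49 TMM CPM in control, 0.826 and 0.822 in E2F and 0.40 and 0.192 in E2F + CycD wings, and it is 1 of the 7 that passed the filter through the control libraries. CG13284, closest to spidey, was at 4.64 and 6.36, 2.03 and 0.731 and 1.94 and 1.35, with -1.96 ± 0.55 (edgeR adjusted p = 0.0146) and -1.73 ± 0.53 (edgeR adjusted p = 0.0173). The reductase-like CG12268 was at 12.3 and 7.01 TMM CPM in control, 2.25 and 4.02 in E2F and 2.23 and 1.35 in E2F + CycD wings, with log2 fold changes of -1.64 ± 0.38 (edgeR adjusted p = 0.00478) and -2.42 ± 0.39 (edgeR adjusted p = 2.97e-04). Its E2F call was lost without control replicate 1 (adjusted p = 0.06). The snu-like transporter CG11147 was at 4.03 and 4.54, 5.86 and 3.56 and 4.11 and 4.68 and was not called, at 0.15 ± 0.32, edgeR adjusted p = 0.747 and 0.04 ± 0.32, edgeR adjusted p = 0.934. Of the lipase-like pair, CG6753 was at 6.84 and 12.1, 1.28 and 3.196 and 0.0571 and 0.385, with -2.09 ± 0.56 (edgeR adjusted p = 0.0111) and -5.41 ± 0.72 (edgeR adjusted p = 7.43e-05), while CG31871 was at 1.34 and 1.04, 0.751 and 1.73 and 0.971 and 1.47 and was not called. The E2F call of CG6753 was lost without control replicate 2 (0.1). The elongase-like CG31522 was the one that was higher.

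The remaining members called at 44 h were at lower levels in control wings. CG10175, CG31626, CG18641, CG6836, CG8563, CG9083, CG32645, CG14397, CG5756, CG1698, CG13284 and CG5080 were called lower in E2F wings too, with mean control levels of 2.62 TMM CPM (CG1698) to 42.1 (CG5080). Among them CG9083, at 5212 CPM in a wild-type 6 h library, was at 2.93 and 4.02 in control and 0.286 and 0.128 in E2F + CycD wings. In E2F + CycD wings CG5687, CG11816, CG13731, CG14752, CG32694 and CG43102 were called lower as well. CG32694 was at 5.497 and 5.06 in control, 3.08 and 8.401 in E2F and 1.03 and 0.385 in E2F + CycD wings, and CG13731 at 11.7 and 20.3, 11.7 and 15.9 and 3.03 and 3.65. With 1 control or E2F 44 h library left out, the E2F calls of CG1698, CG5756, CG5080, CG32645, CG9083, CG13284 and CG14397 were each lost, and with 1 control or E2F + CycD 44 h library left out, the E2F + CycD calls of CG5080, CG11816, CG13284, CG14397, CG32645 and CG43102 were. The 13 tested members not called in E2F + CycD wings were CG1368, CG3355, CG5171, CG7330, CG9932, CG11147, CG11786, CG15212, CG15756, CG31100, CG31871, CG34355 and CG43386.

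**Figure D5:**
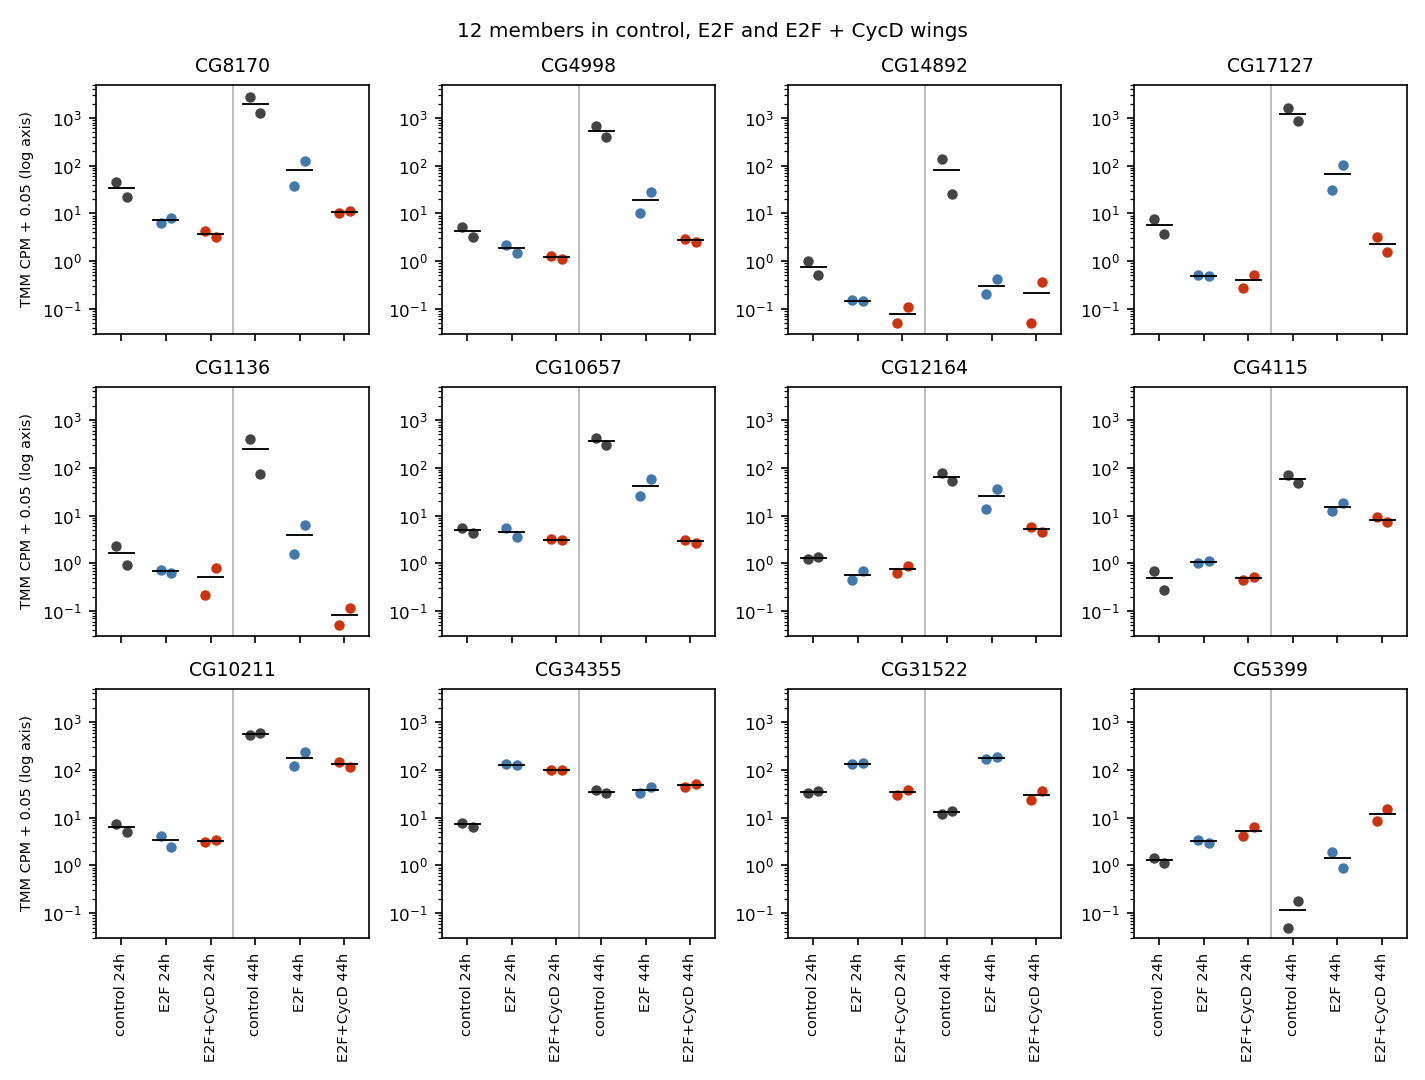
TMM-scaled CPM + 0.05 (log axis) of 12 members in each library of control (grey), E2F (blue) and E2F + CycD (red) wings at 24 h and 44 h; points are libraries and black lines the mean of 2. In the first 9 panels the control points at 44 h lie above all E2F and E2F + CycD points, while CG34355 stands at 97.3 to 130.2 in both transgenic groups at 24 h, against 6.42 and 7.86 in control, and CG31522 is highest in E2F wings at both stages.

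Members that rose at 44 h were few. CG31522, the elongase-like gene, was at 12.1 and 13.5 TMM CPM in control, 171 and 185 in E2F and 23.2 and 36.6 in E2F + CycD wings, with log2 fold changes of 3.799 ± 0.22 (edgeR adjusted p = 4.16e-07) and 1.22 ± 0.21 (edgeR adjusted p = 5.91e-04). The E2F + CycD call was lost without E2F + CycD replicate 2, where the log2 fold change was 0.88. CG5399 was at 0 and 0.13, 1.88 and 0.822 and 8.51 and 15.5, with 4.28 ± 1.04 (edgeR adjusted p = 0.00673) for E2F, where the control level rests on 1 count (34 against 1, a ratio of 22.3 with a 95% exact counting interval of 3.73 to 905). In E2F + CycD wings CG5399 had 390 counts against 1 in control, a ratio of 187 with a 95% exact counting interval of 33.4 to 7412. CG34115 was at 0.611 and 0.389, 2.85 and 2.83 and 3.08 and 4.42, with 2.48 ± 0.68 (edgeR adjusted p = 0.0129) and 2.88 ± 0.67 (edgeR adjusted p = 0.00373). The E2F calls of CG5399 and CG34115 were lost without E2F replicate 1 (adjusted p = 0.0525 and 0.0512) and without a control library, which was replicate 1 for CG5399 (0.0572) and replicate 2 for CG34115 (0.0661). Of these 3 genes, only CG31522 reached 20 TMM CPM in any library at 44 h.

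Markers of the wing and of other cells at 44 h are given on the same TMM scale as the members. Summed TMM CPM of the 7 wing epithelium genes were 1909 to 2351 in control, 1743 to 1873 in E2F and 2000.3 to 2008 in E2F + CycD wings, and those of the 2 tracheal genes were 382 to 424, 401 to 505 and 388 to 407. For both lists the E2F + CycD range lay within that of the control. The 7 fat body genes summed to 229.7 to 363, 436 to 570.0 and 269 to 336, and were thus highest in E2F wings. The 7 hemocyte genes summed to 203 to 310.0, 168 to 213 and 138 to 197. Sums of the 6 muscle genes were 174 to 211, 113 to 189.6 and 78.2 to 106. Those of the 5 neuron and glia genes were 281 to 318, 194 to 209 and 179 to 181. Muscle and neuronal sums were thus lowest in E2F + CycD wings. The 8 salivary gland genes summed to 13.8 to 19.5 in E2F wings and at most 2.44 in the other groups, with ng2 at 0 in E2F wings and Sgs5, ng1 and ng3 at 0 in control wings. The 7 midgut genes summed to at most 0.913, with gammaTry and deltaTry at 0 in all 3 groups. Their part in the members' differences was not tested.

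At 24 h fewer members differed from control than at 44 h, and the same held for all genes. Of all tested genes, 11.9% (E2F) and 7.62% (E2F + CycD) were called at 24 h, against 23.1% and 31.3% at 44 h. In E2F wings 5 were called higher and 5 lower, where 9.88% of all tested genes were called higher and 2.01% lower, and in E2F + CycD wings 2 were called higher and 2 lower, where 5.67% and 1.95% of all tested genes were. The split moved with the settings: for E2F it was 3 higher and 5 lower with RLE scaling, 8 and 5 with library totals and 4 and 8 with DESeq2, and for E2F + CycD it was 2 and 4, 3 and 3, and 2 and 7. Leaving out control replicate 1, E2F replicate 1 or E2F replicate 2 gave 5, 5 and 4 E2F calls in place of 10, and with any 1 library left out 3 of the 10 held. At 24 h, 5 members were at 20 TMM CPM or more in control wings, so most members were measured at low levels there.

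The knk-like CG34355 rose in both transgenic groups at 24 h. It was at 7.86 and 6.42 TMM CPM in control, 130.2 and 124 in E2F and 97.3 and 100.1 in E2F + CycD wings, with log2 fold changes of 4.16 ± 0.19 (edgeR adjusted p = 5.23e-08) and 3.795 ± 0.18 (edgeR adjusted p = 2.26e-07). At 44 h CG34355 was at 37.3 and 32.97, 32.4 and 44.5 and 44.8 and 50.9 and was called in neither comparison. The elongase-like CG31522 at 24 h was at 31.99 and 35.5 in control, 129.7 and 139 in E2F and 29.9 and 38.4 in E2F + CycD wings, so it was higher in E2F wings (1.99 ± 0.199, edgeR adjusted p = 1.98e-05) and not called in E2F + CycD wings (0.02 ± 0.196, edgeR adjusted p = 0.968). CG14752, a protein of the cuticle list, was at 1.11 and 2.08, 12.6 and 12.6 and 0.114 and 0.70, and it was higher in E2F wings (2.94 ± 0.49, edgeR adjusted p = 9.98e-04). CG5399 was at 1.35 and 1.098, 3.39 and 2.93 and 4.03 and 6.42, with 1.38 ± 0.46 (edgeR adjusted p = 0.0485) and 2.098 ± 0.45 (edgeR adjusted p = 0.00879). The E2F call of CG5399 was lost without any 1 of the 4 libraries compared (adjusted p from 0.107 without E2F replicate 2 to 0.242 without control replicate 2). Its E2F + CycD call was lost without control replicate 2 (adjusted p = 0.0967) and without E2F + CycD replicate 2 (0.0591).

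The 5 members called lower in E2F wings at 24 h were CG17127, CG8170, CG11380, CG8927 and CG15212. All but CG15212 rise from 24 h to 44 h in control wings, while CG15212 falls. The E2F calls of CG15212 and CG8927 were each lost with a library left out. CG17127 was at 7.62 and 3.58 TMM CPM in control, 0.456 and 0.439 in E2F and 0.227 and 0.467 in E2F + CycD wings, with log2 fold changes of -3.59 ± 0.81 (edgeR adjusted p = 0.00737) and -3.96 ± 0.87 (edgeR adjusted p = 0.0104). CG8170 was at 44.3 and 22.3, 6.38 and 8.1004 and 4.15 and 3.21, with -2.19 ± 0.54 (edgeR adjusted p = 0.0131) and -3.17 ± 0.58 (edgeR adjusted p = 0.00333). CG11380 was at 6.35 and 3.29, 1.01 and 1.27 and 1.02 and 2.101, and was called for E2F (-2.04 ± 0.61, edgeR adjusted p = 0.0322). Without control 24 h replicate 1, the E2F calls of CG17127, CG8170 and CG11380 were lost (adjusted p = 0.0512, 0.0983 and 0.18). Without E2F replicate 2 they were lost as well (0.0517, 0.0596 and 0.104), and without E2F replicate 1 those of CG8170 and CG11380 were (0.0975 and 0.148). The E2F + CycD call of CG17127 was lost without control replicate 1 (0.0626) or E2F + CycD replicate 1 (0.0879), while that of CG8170 held with any library left out.

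Set directly against E2F wings, E2F + CycD wings had lower levels of 18 tested members and a higher level of 1 at 44 h, where 6.89% of all tested genes were called lower and 4.72% higher. The log2 fold change was -4.87 ± 0.62 (edgeR adjusted p = 2.92e-04) for CG17127, -3.97 ± 0.61 (edgeR adjusted p = 9.25e-04) for CG14752 and -3.85 ± 0.38 (edgeR adjusted p = 6.11e-05) for CG10657. For the protease-like genes it was -2.92 ± 0.55 (edgeR adjusted p = 0.00285) for CG8170 and -2.804 ± 0.45 (edgeR adjusted p = 0.00125) for CG4998. CG14752 was at 4.13 and 8.49 TMM CPM in E2F and 0.571 and 0.192 in E2F + CycD wings. CG5399 was the member that was higher (3.11 ± 0.45, edgeR adjusted p = 6.32e-04). CG14892 and CG15615, which were among those that fell most against control in E2F wings, were not called between the E2F and E2F + CycD wings (-0.68 ± 2.08, edgeR adjusted p = 0.845, and -0.28 ± 0.999, edgeR adjusted p = 0.866). With any 1 library left out, 14 of these 19 calls held.

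At 24 h, 2 members were higher and 3 lower in E2F + CycD than in E2F wings, where 0.965% of all tested genes were called higher and 3.95% lower (4.92% in either direction). CG15212 was at 2.48 and 2.05 TMM CPM in E2F and 8.23 and 9.803 in E2F + CycD wings, with 1.99 ± 0.45 (edgeR adjusted p = 0.016), and CG8927 was at 0.962 and 0.781 and 3.804 and 2.98, with 1.95 ± 0.33 (edgeR adjusted p = 0.00333). CG14752 was lower (-4.93 ± 0.58, edgeR adjusted p = 3.56e-04), as were CG31522 (-1.97 ± 0.198, edgeR adjusted p = 1.56e-04) and CG2150 (-2.51 ± 0.56, edgeR adjusted p = 0.0143), which was at 29.99 and 33.7 in E2F and 3.41 and 7.76 in E2F + CycD wings. Without E2F replicate 1 or E2F replicate 2, 3 members were called, and the calls of CG15212 (adjusted p = 0.0868 and 0.127) and CG2150 (0.0503 and 0.0682) were lost. They were also lost without an E2F + CycD library, replicate 2 for CG15212 (0.0944) and replicate 1 for CG2150 (0.108).

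An interaction term asked whether the effect of a transgene differed between 24 h and 44 h. For E2F, 20 tested members had a lower log2 fold change at 44 h than at 24 h and 1 a higher, where 7.50% and 6.16% of all tested genes were called. For E2F + CycD the numbers were 29 and 2, where 9.68% and 7.98% were called. With the filter set by the 10 libraries other than control at 44 h they were 17 and 1 for E2F (7.49% and 6.11% of all tested genes) and 26 and 2 for E2F + CycD (9.56% and 7.89%). The E2F count was 12, 13 and 11 without control 24 h replicate 2, E2F 24 h replicate 1 or E2F 44 h replicate 1. Median differences were -1.49 and -2.63 over the tested members and -0.13 and -0.09 over all genes.

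The 83 named genes that pass the same 6 h rule are set beside the members by count. Against control at 44 h, 27 of 75 tested were called lower and 9 higher in E2F wings, and 41 lower and 6 higher in E2F + CycD wings. From 24 h to 44 h in control wings 48 rose and 10 fell, where 20.6% of all tested genes were called higher and 16.3% lower. CG genes with a 44 h peak had 31 and 37 of 49 tested called lower for E2F and for E2F + CycD at that stage, with 1 higher in each. Of 27 tested CG genes with a 36 h peak, 16 and 14 were called higher. Whether the members differ from these sets was not tested.

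The cuticle families varied among themselves. Against control at 44 h, 7 of 20 tested Osiris genes were lower and 6 higher in E2F wings, and 9 lower and 5 higher in E2F + CycD wings. Of 46 Cpr and other cuticle protein genes, 18 were lower and 10 higher in E2F wings, and 20 lower and 2 higher in E2F + CycD wings. Of 7 Tweedle genes 4 were lower in each, of 19 chitin and apical matrix genes 5 were lower and 5 higher, then 7 lower and 4 higher, and of 20 ecdysone regulators and effectors 4 were lower and 7 higher, then 5 lower and 7 higher.

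The 11 members that did not pass the filter were close to absent from all transgenic wings. They were CG9737, CG12481, CG13041, CG13060, CG14327, CG15249, CG15649, CG16704, CG3604, CG34196 and CG34296, and of these CG34296 reached the highest level, 2.92 TMM CPM in E2F 44 h replicate 2. CG16704, at 2688 and 189 CPM in the wild type at 6 h, was at 0.366 and 1.17 in control wings at 44 h, and CG14327, at 895 and 44.7 at 6 h, was at 0 and 0.13. For these genes a difference between the genotypes was not tested in the main fit, whose filter they did not pass.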

How the data were processed

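RNA-seq counts per gene were analysed for 24 libraries, 12 wild-type and 12 transgenic, with 2 per group. An additional 34 FAIRE samples of the series were not analysed here. Per the submitters' processing notes and the study's methods, reads were aligned to dm6 with STAR and counted with HTSeq, and the authors deposited the raw counts, unnormalised. The notes also name Bowtie2. The libraries were made with a stranded kit, but the strand setting of the counting and the annotation release are not given in the sources used here. Of 17559 gene IDs, 17253 had a symbol in the RefSeq table, and 2 genes that pass the 6 h rule had none. HTSeq lines that name no gene were left out. Reads aligned to several places made up 31.6% to 62.8% of a library.

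The members and gene lists were chosen with earlier results of these data known. CPM used the total of reads on genes. The 12 transgenic libraries were fitted together with edgeR 4.0.16 in R 4.3.3 (quasi-likelihood F-test, TMM, filterByExpr with a minimum count of 10, Benjamini-Hochberg over 9636 genes). The call limits were 0.05 for the adjusted p and 1 for the size of the log2 fold change. The biological coefficient of variation was 16.4%. On simulated counts for the E2F against control comparison at 44 h, 200 of 200 genes changed by 2 on the log2 scale were recovered with 6 false calls over 9194 genes (edgeR), and 200 with 0 false calls over 8701 (DESeq2). Only well-counted genes were changed, and all genes had the same spread between replicates. The simulation thus does not cover genes of few counts or groups whose replicates stood far apart. Alternatives were DESeq2 1.42.0, RLE scaling, no filter, a replicate block, only the groups compared, each library left out, and, added after the data were seen, library totals and a filter set by the 10 libraries other than control at 44 h. Proteins were compared with BLAST+ 2.17.0, and tables were handled in Python 3.11.15. Counting intervals are exact and cover counting error only.

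Full values are given for the 12 members with the highest 6 h mean, for up to 3 called members per direction and comparison with the largest log2 fold change (no overlap between groups, and 50 or more counts in both libraries of the higher one), for the 3 members and 3 other genes nearest each threshold, for runs of 3 or more neighbouring members, for members whose 6 h libraries differed over 4-fold, and for members of the protein groups described. Other members given with values were chosen after their values were seen.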

Additional observations from a re-analysis of the deposited data

Results flagged for a closer look

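For some members described above, the effect of a transgene at 44 h differed from its effect at 24 h by the interaction test (edgeR, adjusted over all genes tested). Values are the log2 fold change against control at 44 h minus that at 24 h, ± standard error, and the E2F and E2F + CycD effects share their control libraries.

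For E2F, the difference was -5.25 ± 1.27 (edgeR adjusted p = 0.0147) for CG11382, -4.04 ± 0.25 (edgeR adjusted p = 1.31e-05) for the knk-like CG34355 and -3.83 ± 0.66 (edgeR adjusted p = 0.0022) for CG14752. It was -3.26 ± 0.57 (edgeR adjusted p = 0.00258) for CG4115, -3.07 ± 0.72 (edgeR adjusted p = 0.0129) for CG2150 and -3.02 ± 0.498 (edgeR adjusted p = 0.00173) for the Cralbp-like CG10657. CG11380 had -2.92 ± 0.79 (edgeR adjusted p = 0.0245) and the protease-like CG8170 -2.42 ± 0.73 (edgeR adjusted p = 0.0392). CG34355 and CG14752 were called higher than control at 24 h, while the others listed so far were called lower at 44 h. CG2150 was also above control at 24 h, though not called, at 29.99 and 33.7 against 10.5 and 11.3 TMM CPM. Both stages thus enter its difference. For CG4115 too, the difference was larger in size than the log2 fold change at 44 h alone. The elongase-like CG31522 was higher at both stages, with a difference of 1.81 ± 0.29 (edgeR adjusted p = 0.00137).

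For E2F + CycD, the difference was -6.34 ± 0.56 (edgeR adjusted p = 4.83e-05) for CG10657, -5.08 ± 1.55 (edgeR adjusted p = 0.034) for CG17127, -4.49 ± 0.79 (edgeR adjusted p = 0.00183) for CG11380 and -4.36 ± 0.79 (edgeR adjusted p = 0.00224) for CG8170. It was -3.896 ± 0.79 (edgeR adjusted p = 0.00408) for CG2150, -3.35 ± 0.24 (edgeR adjusted p = 1.86e-05) for CG34355, -2.92 ± 0.71 (edgeR adjusted p = 0.011) for CG4115 and -2.002 ± 0.37 (edgeR adjusted p = 0.00251) for CG8927. The positive differences were 1.21 ± 0.29 (edgeR adjusted p = 0.0108) for CG31522 and 5.29 ± 1.09 (edgeR adjusted p = 0.00454) for CG5399. For CG1136 the difference was -10.92 ± 2.82 (edgeR adjusted p = 0.0155). The values of CG5399 and CG1136 rest on 1 count over both libraries of a 44 h group and depend on the prior count of the fit.

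Calls of some of these were lost with 1 library left out. For E2F these were CG11382 (adjusted p = 0.0573 and 0.098 without E2F 24 h replicate 1 or replicate 2) and CG2150 (0.0506 without control 24 h replicate 2 and 0.057 without E2F 44 h replicate 1). CG11380 and CG8170 lost the E2F call without control 24 h replicate 2, control 44 h replicate 1, either E2F 24 h library or E2F 44 h replicate 1, at 0.0508 to 0.115 for CG11380 and 0.073 to 0.142 for CG8170. For E2F + CycD, CG17127 lost it without control 24 h replicate 2, control 44 h replicate 1, either E2F + CycD 24 h library or E2F + CycD 44 h replicate 2 (0.0563 to 0.256), CG4115 without control 24 h replicate 2 (0.0558) or E2F + CycD 24 h replicate 2 (0.0698), CG1136 without E2F + CycD 24 h replicate 2 (0.266), and CG31522 without E2F + CycD 44 h replicate 2, where the difference was 0.87.

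With any 1 library left out, 10 of the 21 E2F differences and 19 of the 31 E2F + CycD differences among all tested members held.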

How the results depend on the processing

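Counts of called members are given as all calls, with those higher and lower after them where the split moved. Shares of all genes called are given above for the main fit and for the filter set by the 10 libraries other than control at 44 h. For the other settings they are not given, so those counts have no background beside them. Against 10 calls (5 higher, 5 lower) for E2F at 24 h, no filter on low counts gave 18 (8 and 10). Against 4 (2 and 2) for E2F + CycD at 24 h, DESeq2 gave 9 (2 and 7), no filter 11 (2 and 9) and a fit of only the groups compared 8 (2 and 6). With 1 library left out, counts ran from 4 to 7 for E2F and 3 to 5 for E2F + CycD at 24 h, from 21 to 32 for E2F and 38 to 44 for E2F + CycD at 44 h, from 3 to 4 and 16 to 24 for E2F + CycD against E2F at 24 h and 44 h, from 40 to 45 for control at 44 h against 24 h, and from 11 to 22 and 24 to 30 for the differences of the E2F and E2F + CycD effects between stages. Where a group was left with 1 library, it was assumed to vary like the others. Library totals moved the median log2 fold change of all genes from -0.07 to 0.54 (E2F, 44 h), from -0.06 to 0.92 (E2F + CycD, 44 h) and from -0.03 to -0.98 (control, 44 h against 24 h), with 6 higher and 25 lower, 5 and 30, and 36 and 5.

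The replicate numbers share only a number. Deviations of same-numbered libraries correlated at -0.069 to 0.130, and a replicate block gave 9, 33, 4, 42, 5 and 19 calls for E2F, E2F + CycD and E2F + CycD against E2F at 24 h and 44 h each, 45 for control over time, and 21 and 29 for the differences of effects. All 34 single-member calls covered by the naming rule held with the block. Of 372 other fits of these, 353 kept the call and 19, all with 1 library left out, lost it, in 8 results. Under every alternative run, none reversed.

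The rule itself gave 67 members. TMM scaling over the wild-type libraries gave 75 (64 shared) and RLE 73 (63 shared), a 6 h mean of 10 or more 82 and of 40 or more 62, a ratio of 3 gave 85 and of 6 gave 58, and one replicate per stage gave 60 to 79. Of the members, 45 were chosen under every scaling and with either replicate left out. At the depth of the wild-type libraries, 3 counts correspond to 0.399 to 1.58 CPM.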
